A study of Mus musculus with 3 samples.

Results

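The Groucho or TLE co-repressors are the 6 mouse genes Tle1, Tle2, Tle3, Tle4, Tle5 (also called Aes) and Tle6. They were taken by name from the platform's annotation, where each has 1 probe set, and they are 6 of the 19938 genes that could be named. Their RNA was measured in thymocytes, the T cell precursors that develop in the thymus, on 3 Affymetrix whole-transcript arrays. One array held RNA of wild type thymocytes (age given as 12 weeks), one of β-catenin transgenic thymocytes (16 weeks) and one of TCF-1-/- thymocytes (8 weeks), called TCF-1-deficient here. The labels do not give the strain, the sex, the promoter that drives the transgene or the number of mice behind an array, and no sort or gate is mentioned. With 1 array per genotype there is no error, test or replicate check for any value. Genotype and age cannot be told apart in any of the comparisons.

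Groucho/TLE proteins do not bind DNA themselves. They are brought to genes by transcription factors such as the TCF/LEF, HES and RUNX families, form oligomers through a glutamine-rich domain at their amino end, and recruit histone deacetylases. In the Wnt pathway they occupy TCF/LEF factors until β-catenin takes their place. Tle1 to Tle4 encode the full-length proteins with a carboxy-terminal domain of WD40 repeats. Tle5 encodes a short protein without those repeats, which can modulate the full-length ones, and Tle6 encodes a diverged member best known from the oocyte and early embryo. In thymocytes TCF-1 and its relative LEF-1, and the RUNX factors, are the best known partners.

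All values are the deposited ones, taken as log2 units, so a difference of 1 is 2-fold. A gene was called lower or higher at 2-fold or more, which is a rule of size and not a test. Levels are compared between arrays for the same gene, and the median level over genes serves only as a filter. Many deposited values are the same on several arrays to the last printed digit: 28.8% of the 35556 probe sets are the same on all 3. An exact 0 does not show that 2 levels were equal to that precision. Xist, the RNA that coats the silent X chromosome in female cells, had values of 12.49 in wild type, 12.17 in TCF-1-deficient and 4.86 in transgenic thymocytes, so sex cannot be told apart from genotype and age in the transgenic comparisons.

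On the TCF-1-deficient array all 6 Groucho/TLE genes were below their wild type level, with differences from -1.22 to -0.24, and 26.1% of all genes were below it. The short member Tle5 was the 1 gene of the 6 beyond 2-fold, and 2.62% of all genes were lower by as much. On the transgenic array none of the 6 differed from wild type by as much as 1.5-fold, and the members differed from it in both directions. The TCF-1-deficient array had the lowest value of the 3 arrays for 6 of the 6 genes, an order found for 22.5% of all genes.

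Among the full-length members, Tle4 differed most between wild type and TCF-1-deficient thymocytes. Tle4 had a value of 8.72 in wild type, 8.46 in transgenic and 7.99 in TCF-1-deficient thymocytes. It was thus highest in wild type and lowest without TCF-1, with the transgenic array between. The TCF-1-deficient minus wild type difference was -0.72, or 1.65-fold, past 1.5-fold and short of 2-fold. Of all genes, 4.82% had a difference as low or lower.

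Tle1 was at 6.92 in both wild type and transgenic thymocytes and at 6.48 without TCF-1. The 2 equal values agree to the last printed digit. Its TCF-1-deficient minus wild type difference of -0.44 is 1.36-fold. No detection call was used here, so how far the Tle1 signal stands above background is not known and the size of this fold is uncertain. Tle2 was at 7.43 in wild type, 7.37 in the transgenic and 7.17 in the TCF-1-deficient thymocytes, again lowest without TCF-1. The Tle2 difference was small, -0.26 without TCF-1 and -0.07 with the transgene.

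Tle3 was at 10.99 in wild type, 11.24 in transgenic and 10.75 in TCF-1-deficient thymocytes. Its values were ordered with the transgenic array highest and the TCF-1-deficient array lowest. The differences from wild type were 0.25 and -0.24, 1.19-fold and 1.18-fold in size. Tle3 had the smallest difference of the 6 genes without TCF-1 and the highest with the transgene.

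The short member Tle5 was at 12.22 in wild type, 12.32 in transgenic and 11.00 in TCF-1-deficient thymocytes. The wild type and transgenic values lie close together, and the TCF-1-deficient value lies well below both. The difference without TCF-1 was -1.22, or 2.32-fold lower, and 347 of the 19938 genes (1.74%) had a difference as low or lower, Tle5 included. The difference with the transgene was 0.10, or 1.07-fold. Between the mutants the transgenic array was 1.31 above the TCF-1-deficient one, which is 2.48-fold.

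Tle6 was at 7.13 in both wild type and transgenic thymocytes, equal to the last digit, and at 6.72 without TCF-1. Its difference from wild type was -0.41, or 1.32-fold, a size as uncertain as that of Tle1 for the same reason.

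**Figure D1:**
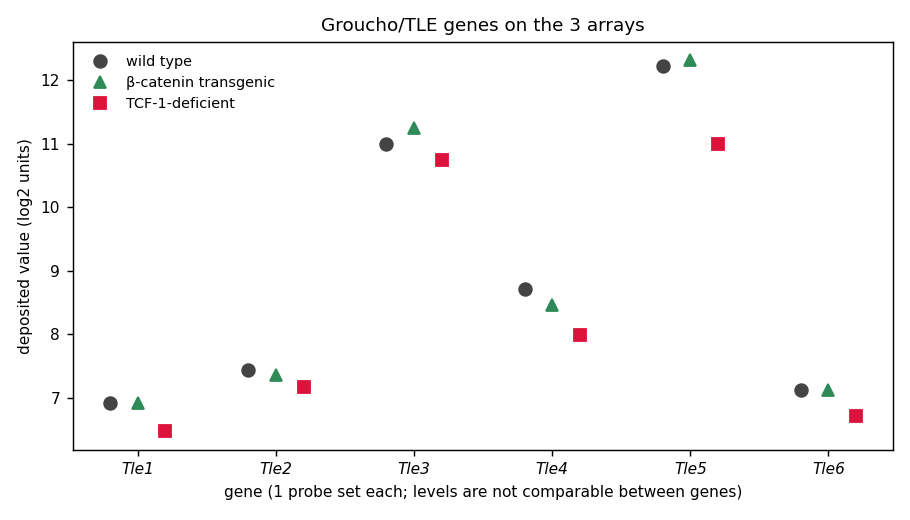
Deposited log2 value of each Groucho/TLE gene (1 probe set each) on the wild type (circle), β-catenin transgenic (triangle) and TCF-1-deficient (square) array. Each point is 1 array and has no error bar. The TCF-1-deficient square is the lowest of the 3 points for every gene, and the gap is widest for Tle5, from 12.22 to 11.00.

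Set against all genes, the count beyond 2-fold without TCF-1 was 1 of 6 lower and 0 higher, where the shares of all genes were 2.62% lower and 1.33% higher. Among the genes whose mean level reaches the median, 4.75% were lower by at least 2-fold. At 1.5-fold 2 of the 6, Tle4 and Tle5, were lower and 0 higher, against 6.9% and 4.04% of all genes. With so few members a single gene is a large share, and these counts are descriptions. For direction alone, 6 of 6 were below 0, 0 above it and 0 identical, while 26.1% of all genes were below 0, 37.6% above it and 36.4% identical. Among the genes that were not identical, 41% were below 0. The median difference was -0.42 over the 6 genes and 0 over all genes. Without Tle5 the other 5 ranged from -0.72 to -0.24 with a median of -0.41.

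The differences were unequal within the family. Without TCF-1 the Tle5 difference lay -0.97 from that of Tle3 and -0.49 from that of Tle4. The median of the full-length members Tle1 to Tle4 was -0.35, beside -1.22 for Tle5.

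With the transgene, 0 of 6 were beyond 2-fold or 1.5-fold in either direction. Of all genes, 0.0953% were below wild type by 2-fold or more and 0.15% above it, and 0.667% and 0.487% were so at 1.5-fold. Tle3 and Tle5 were above wild type, Tle2 and Tle4 below it, and Tle1 and Tle6 identical to it. The shares of all genes were 24.5%, 22.2% and 53.3%. The median was 0 over the members and over all genes.

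The transgenic array was above the TCF-1-deficient array for 6 of 6 members, against 24.6% of all genes, of which 41% were identical on both, and 41.7% of those not identical. The gap was 0.20 for Tle2, 0.41 for Tle6, 0.44 for Tle1, 0.47 for Tle4, 0.49 for Tle3 and 1.31 for Tle5. Tle5 was again the 1 member beyond 2-fold, and 2.45% of all genes were higher by as much. This comparison shares each of its arrays with one of the comparisons above and is not independent of them.

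**Figure D2:**
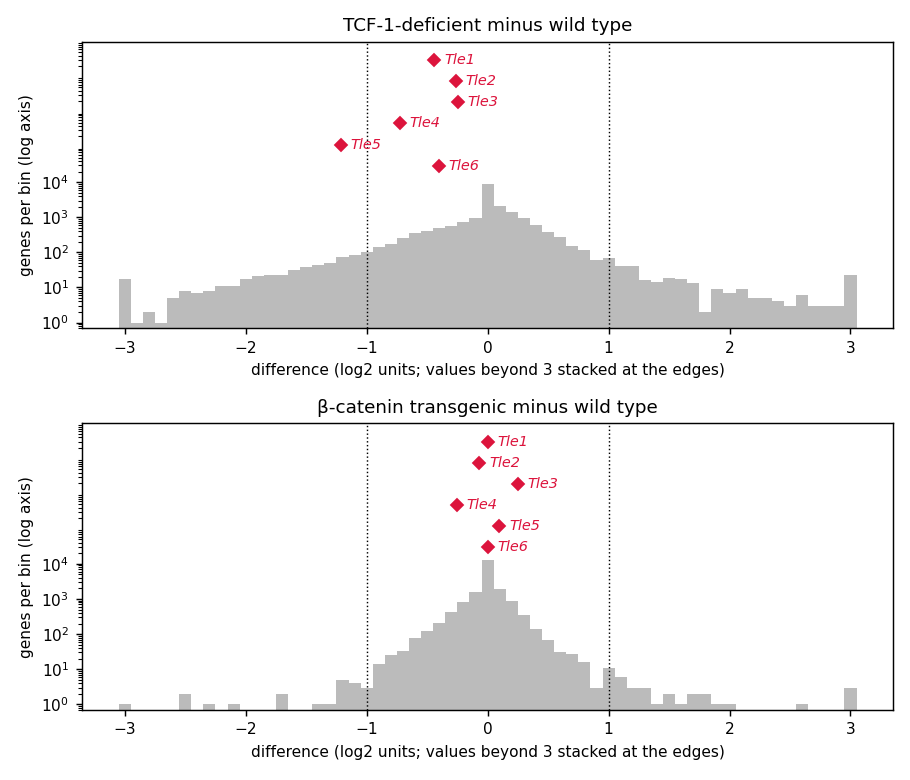
Histograms of the log2 differences of all 19938 genes (grey, bins of equal width, log axis for the number of genes), with the 6 Groucho/TLE genes as diamonds placed at their difference and at an arbitrary height; dotted lines mark 2-fold. In the upper panel all 6 diamonds lie left of 0 and Tle5 lies beyond the 2-fold line, and in the lower panel they lie between -0.25 and 0.25.

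The series' stated aim was to find genes that lose expression in TCF-1-deficient and gain it in transgenic thymocytes. At 2-fold and at 1.5-fold in both comparisons, 0 of the 6 members met this, and 0.0301% and 0.176% of all genes did. By direction alone Tle3 (-0.24 and 0.25) and Tle5 (-1.22 and 0.10) met it, 2 of 6, against 7.24% of all genes. For Tle5 the transgenic part of that pattern is 1.07-fold.

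Tle2, Tle5 and Tle6 lie next to each other on chromosome 10, where no other protein-coding gene separates them, and Tle2 and Tle6 overlap on opposite strands. Whether probes fall in the overlap is not stated, so signal of that pair may be shared. Of the 8 protein-coding genes next to the trio, 4 on each side, 7 were measured. None of the 7 was beyond 2-fold without TCF-1, where the shares of all genes were 2.62% lower and 1.33% higher. So few genes would seldom hold 1 beyond 2-fold. Their differences from wild type ran from -0.23 to 0.27 with a median of 0. Of the 7, 3 were identical to wild type, as were 36.4% of all genes. Gna11, which encodes a G protein α subunit and is the nearest neighbour of Tle5, was at 8.74 in wild type and 8.51 without TCF-1. Sirt6, a deacetylase on the other side of the trio, was at 9.60 in wild type and 9.87 without TCF-1, and thus differed in the opposite direction from the 3 members.

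**Figure D3:**
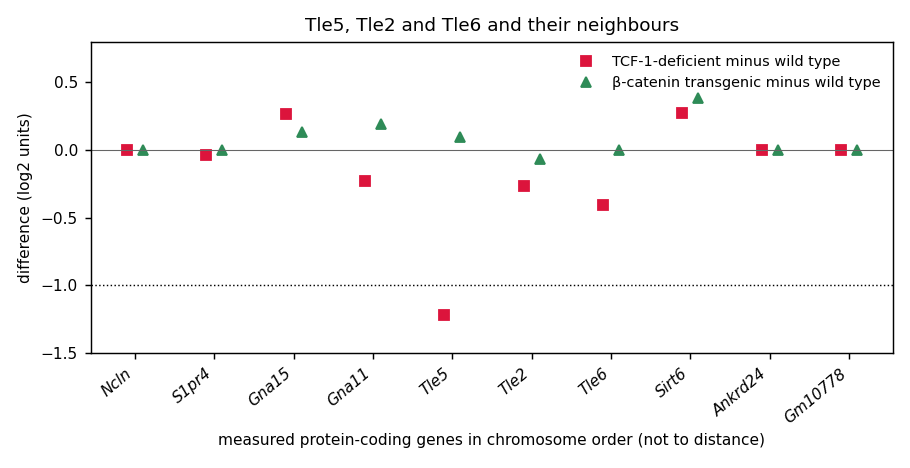
Log2 difference from wild type on the TCF-1-deficient (squares) and transgenic (triangles) array for Tle5, Tle2, Tle6 and the 7 measured protein-coding neighbours, in chromosome order and not to distance. The Tle5 square at -1.22 is the 1 point below the dotted 2-fold line, and the neighbours lie between -0.23 and 0.27 for the TCF-1-deficient array.

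Promoter sequences in RefSeq (GRCm38.p6, 250 bases before to 50 after a start site) were matched by symbol for 5 of the 6 genes, with 7 start sites between them. Tle5, the 1 member beyond 2-fold, had no match, so no motif count below covers it. The sequences are shown because the 6 genes were lower together without TCF-1. The longest run of letters, on either strand, found in the windows of at least 3 of the 5 genes was a palindrome, CCCACGTGGG, which had been noticed on reading the sequences. It holds the E-box CACGTG, which is bound by basic helix-loop-helix factors such as MYC and USF. The palindrome stands in the window of 1 start site each of Tle3, Tle4 and Tle6, so in 3 of 7 member promoters, and in 39 of all 32851 promoters, or 0.119%. It was chosen for being in at least 3 member genes, so its member share was fixed by the choice and measures no enrichment. The 3 stretches are shown with the palindrome in capitals and 30 bases on either side, 5′ to 3′ on the gene's strand.
Tle3, chr9:61372266-61372335, plus strand: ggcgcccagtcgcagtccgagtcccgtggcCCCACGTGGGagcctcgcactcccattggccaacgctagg
Tle4, chr19:14598356-14598425, minus strand: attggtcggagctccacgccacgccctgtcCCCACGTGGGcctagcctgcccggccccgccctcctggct
Tle6, chr10:81601046-81601115, minus strand: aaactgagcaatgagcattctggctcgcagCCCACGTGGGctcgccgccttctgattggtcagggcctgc

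The first base of the palindrome lies 70 bases before the start site in Tle3, 212 in Tle4 and 185 in Tle6. The core CACGTG alone, searched likewise on both strands, stands in the same 3 member promoters and in 7.15% of all promoters. Its member share too was fixed in part by the choice of the palindrome, which holds it. The Tle6 window holds the core at a second place outside the palindrome. The members with the palindrome differed by -0.24 (Tle3), -0.72 (Tle4) and -0.41 (Tle6) without TCF-1, and Tle1 and Tle2, whose windows lack it, by -0.44 and -0.26, so these ranges overlap. Over the 25 measured genes with the palindrome, the 3 members among them, the median difference was 0.02 and 0 were lower by at least 2-fold, beside 0 and 2.55% for all genes with a promoter in the table. The letters CTTTGAA and CTTTGAT, forms of the TCF/LEF recognition motif, were searched on both strands and are in 0 of the 7 member promoters, and in 5.14% and 3.73% of all promoters. A match of letters is not a bound site, and its absence from these windows says nothing of sites elsewhere.

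Genes for the partners that bring Groucho/TLE proteins to DNA were above, below or identical to wild type without TCF-1. Lef1, which encodes the TCF-1 relative LEF-1, was at 11.92 in wild type, 11.65 in the transgenic and 12.46 in the TCF-1-deficient thymocytes. Lef1 was thus highest on the array where each Groucho/TLE gene was lowest, with a difference of 0.54 that does not reach 1.5-fold. The other measured TCF genes were Tcf7l1, at 6.62 in wild type and 6.85 without TCF-1, and Tcf7l2, at 7.24 and 6.70. Of these 3 genes 0 were beyond 1.5-fold in either comparison with wild type. The shares of all genes were 6.9% lower and 4.04% higher without TCF-1, and 0.667% and 0.487% with the transgene. Tcf7l1 was below the median level over genes on every array.

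Of 18 measured genes for other DNA-binding partners, 2 were above wild type by 2-fold or more without TCF-1 and 0 below it, and 7 were identical to wild type. The shares of all genes were 1.33%, 2.62% and 36.4%. The 2 higher genes were Heyl (6.76 to 9.96, a difference of 3.19) and Hes1 (6.82 to 9.55, 2.74), repressors induced by Notch whose family recruits Groucho/TLE. Both also belong to the DN3 marker list given below. Runx3, a factor of the CD8 lineage that can recruit Groucho/TLE, was at 9.38 in wild type and 10.23 in TCF-1-deficient thymocytes, a difference of 0.85, and differed by -0.38 with the transgene. Runx1 was at 11.44 on all 3 arrays, identical to the last digit. Pax5, a B cell factor that recruits Groucho/TLE, was at 6.56 in wild type and 7.31 without TCF-1, and it is a B cell marker too.

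The list of β-catenin and its nuclear co-factors and regulators had 0 of 14 genes beyond 2-fold without TCF-1, and at 1.5-fold 2 were lower and 0 higher. The shares of all genes at 1.5-fold were 6.9% lower and 4.04% higher. The 2 lower genes were Ep300 (11.29 to 10.31, a difference of -0.98) and Crebbp (11.74 to 11.13, -0.62), which encode histone acetyltransferases. Smarca4, an ATPase of chromatin remodelling, differed by -0.57, Med12 of the Mediator by -0.41 and Bcl9l, a β-catenin adaptor, by 0.41. Ctnnb1, β-catenin itself, was at 11.15 in wild type, 11.39 in the transgenic and 11.16 in the TCF-1-deficient array. The median of the 14 was -0.15 without TCF-1 and -0.0018 with the transgene.

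Other co-repressor and histone deacetylase genes had a median difference of 0 over the 18 measured without TCF-1, beside -0.42 for the Groucho/TLE genes and 0 for all genes. Of the 18, 1 was lower and 0 higher by at least 1.5-fold: Sin3b, a scaffold of deacetylase complexes, at 9.61 in wild type and 8.92 without TCF-1. The shares of all genes at 1.5-fold were 6.9% lower and 4.04% higher. Gatad2b, a NuRD subunit, differed by -0.47, Hdac7, a deacetylase of thymocytes, by -0.45, Rbbp7, a histone chaperone, by 0.45, and Mta2, also of NuRD, by -0.37. These members differed in both directions. Of the 5 measured genes for enzymes that modify Groucho/TLE proteins, 0 were beyond 1.5-fold, from -0.25 for Csnk2a1, a subunit of casein kinase 2, to 0.06 for Hipk2, a kinase. Csnk2a2, another casein kinase 2 subunit, differed by -0.11, Usp47, a deubiquitinase, by -0.09 and Xiap, a ubiquitin ligase, by -0.04.

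**Figure D4:**
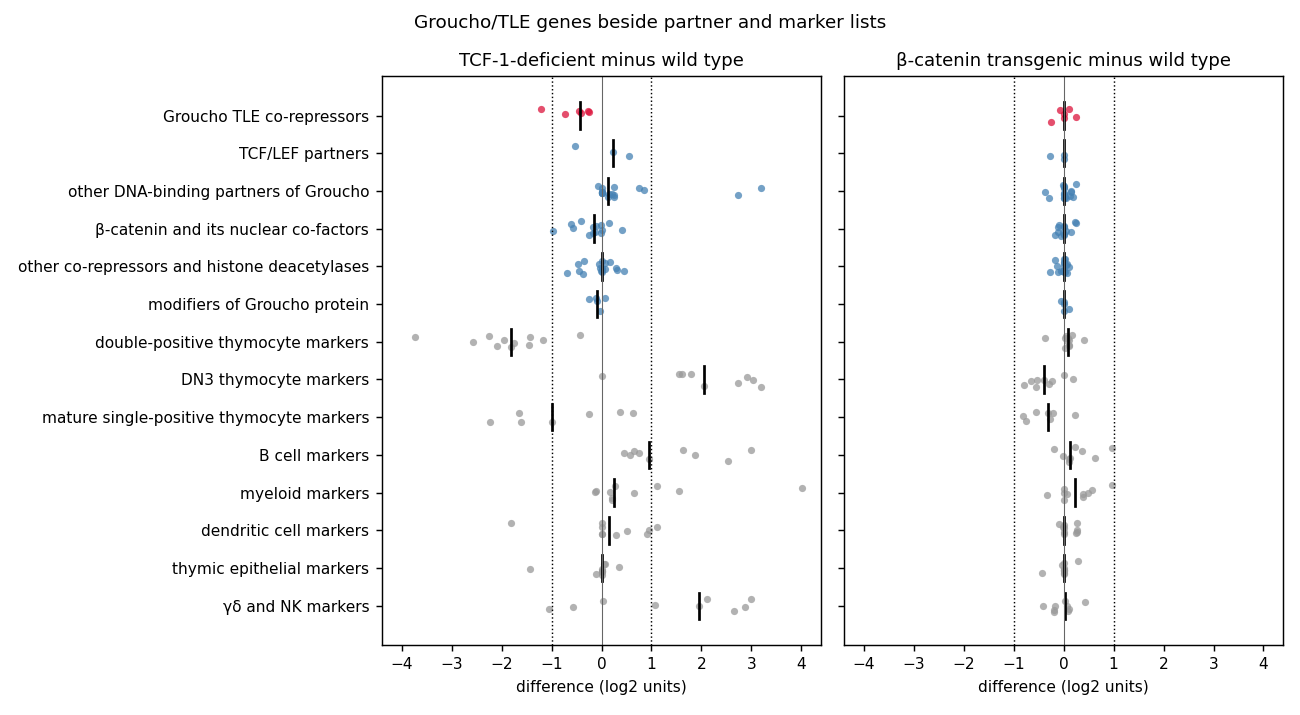
Log2 difference from wild type of each measured gene (dots, spread vertically at random) in 14 lists, on the TCF-1-deficient (left) and transgenic (right) array, with the list median as a black bar and 2-fold as dotted lines. The 6 Groucho/TLE genes (red) lie left of 0 in the left panel with a median of -0.42, between the partner and co-factor lists (blue), with medians from -0.15 to 0.23, and the double-positive marker list (grey), with a median of -1.81.

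Markers of thymocyte stages and of other cell types also differed between the arrays, in both directions. Among the 11 measured markers of the double-positive (CD4+CD8+) stage, 10 were lower by at least 2-fold without TCF-1, with a mean level of 11.80 in wild type, 11.87 in the transgenic and 9.92 in the TCF-1-deficient array. Of 9 DN3 markers, which belong to an earlier stage, 8 were higher by at least 2-fold, with means of 8.29, 7.92 and 10.38. Of 7 mature single-positive markers 3 were lower, and 4 of 9 B cell, 6 of 9 γδ and NK cell and 3 of 10 myeloid markers were higher by as much. The shares of all genes at 2-fold were 2.62% lower and 1.33% higher. Of the other mature single-positive markers, Il7r (0.63) and Klf2 (0.38) were above wild type, and Ccr7 (-0.998) and S1pr1 (-0.25) below it. The γδ and B cell lists share Blk, and Klrb1c (-1.06) of the γδ and NK list and Cldn4 (-1.44) of the thymic epithelial list were lower. Of 10 dendritic markers, H2-Aa was higher and Ccr9, which thymocytes also express, was lower. Of 10 thymic epithelial markers, 5 had the same value without TCF-1 as in wild type, as did 36.4% of all genes. On every array 8 of the 10 thymic epithelial and 5 of the 10 dendritic markers were below the median level over genes. In bulk RNA, fewer cells of a type and less RNA per cell cannot be told apart, and the part of these shifts in the lower Groucho/TLE levels was not tested. With the transgene 0 markers of any of these lists were beyond 2-fold, but the lists were not unchanged. At 1.5-fold 2 DN3 and 2 mature single-positive markers were lower, and 2 B cell markers and 1 myeloid marker were higher. The shares of all genes were 0.667% lower and 0.487% higher. Cd79a of the B cell list (0.97) and Itgam of the myeloid list (0.96) differed most. Both would pass 2-fold if the arrays were centred over all probe sets, which adds 0.08 to every transgenic difference.

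The genes most like Tle5 were found by the distance between pairs of differences from wild type, without TCF-1 and with the transgene, among 9489 genes of at least median level, without predicted genes and small RNAs. With 3 arrays such a pair is all the pattern there is, and 17 genes lay within 0.1 log2 units of Tle5. The nearest was Hbp1, a transcriptional repressor of the HMG-box class, at 10.29 in wild type, 10.37 in the transgenic and 9.05 without TCF-1, a distance of 0.025. It was followed by Armcx1 (differences of -1.21 and 0.06), Orai2, a calcium channel subunit (-1.17 and 0.14), Dyrk1b, a kinase (-1.15 and 0.10), and Nsg2 (-1.19 and 0.17).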

How the data were processed

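RNA of 3 thymocyte samples was measured on 1 array each. The authors deposited 1 value per probe set and array, taken as log2: the submitters' processing notes name RMA and Partek, RMA ends in log2 values, and the values run from 1.73 to 14.85. No header gives the log base. The deposited normalization was kept. Versions, settings and build were, for all 3 arrays, not given in the sources used here.

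Of 35556 probe sets, 21789 have 1 gene symbol in the platform's annotation; 1621 with several and 12146 unlisted were not used. The Entrez identifiers of all but 91 of the 21789 were found in the RefSeq gene table (GRCm38.p6). Where a gene has several probe sets, the brightest by mean represents it. The gene whose loss defines the TCF-1-deficient mice is not reported here.

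Differences are 1 array minus another, called at 2-fold (1 on the log2 scale). No test is possible with 1 array per genotype, and the small number of arrays sets the precision. The members and the 14 lists were chosen with earlier results of these data known. Genes named are the members, list members beyond 2-fold or else up to 5 with the largest difference, 5 fixed genes and the 5 nearest to Tle5; marker lists are given as counts. Neighbours, promoters and motifs were chosen after values or sequences were seen. The calculations were tested on simulated data. Alternatives were other thresholds, centring, loess (span 0.3), other probe set rules and filters. Python 3.11.15, pandas 2.3.3, NumPy 2.4.6, statsmodels 0.14.6 and matplotlib 3.10.9 were used.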

Additional observations from a re-analysis of the deposited data

How the results depend on the processing

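No paired analysis was possible because each genotype has 1 array. For each of the 6 Groucho/TLE genes the TCF-1-deficient minus wild type difference stayed below 0 under both centrings and loess, the 3 alternatives that can move it (the other 5 repeat the same value, since each member has 1 probe set and passes the filter), from -1.27 to -1.08 for Tle5, -0.77 to -0.59 for Tle4, -0.49 to -0.31 for Tle1, -0.45 to -0.27 for Tle6, -0.31 to -0.13 for Tle2 and -0.29 to -0.11 for Tle3. Tle1 and Tle6 reach the median level over genes (6.90) on the wild type and transgenic arrays only. Passing the filter is therefore no check of their difference without TCF-1. The mean level of Tle1 over its arrays is below that median. The filter that leaves out dim genes kept Tle1 and so is not the rule on the mean level used above. Centring the arrays on their medians over all probe sets adds 0.13 to every TCF-1-deficient difference and 0.08 to every transgenic one. It moves the genes beyond 2-fold without TCF-1 from 523 lower and 266 higher to 405 and 364, while centring on the median over named genes gives 577 and 241. With the transgene, centring over all probe sets turns Tle2 from -0.07 to 0.01 and Tle1 and Tle6 from 0 to 0.08. Counts changed with the threshold by its construction. At 1.5-fold, 2 members were beyond it without TCF-1 against wild type, and at 3-fold 0, as between the transgenic and TCF-1-deficient arrays, where 1 was beyond 2-fold. Over all genes the counts at 1.5-fold and 3-fold were 2182 and 282 for TCF-1-deficient against wild type (789 at 2-fold), 230 and 18 for transgenic against wild type (49), and 2133 and 295 for transgenic against TCF-1-deficient (802). The small differences of Tle2 and Tle3, and every difference with the transgene, have no replicate spread to be read against.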
